A study of Homo sapiens with 17 samples.

Results

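The genes described here are brakes and readouts of the Ras-ERK pathway: the MAP kinase phosphatases DUSP1, DUSP4, DUSP5 and DUSP6, the Sprouty genes SPRY1, SPRY2 and SPRY4, the Spred genes SPRED1 and SPRED2, and PHLDA1. They were chosen by name, as a family known for feedback control of ERK, and matched by symbol to 10 of the 58870 entries of the count table. RNA came from MDA-MB-231, an established human line of triple-negative breast cancer (no oestrogen receptor, progesterone receptor or HER2 amplification), which the labels call mesenchymal and basal B. Cells were given 45 nM TRAIL (a TNF-family cytokine whose death receptors can start apoptosis), a dose the labels call suboptimal, and were sampled at 0, 1, 3, 6, 12 and 24 h. There were 3 libraries at each time except 1 h, for which 2 were analysed. All libraries, those at 0 h included, carry the TRAIL label and none is an untreated culture kept for a later time, so exposure to TRAIL and time in culture cannot be told apart. The labels do not say whether replicates were separate cultures, so p-values measure the spread between these libraries, which may be technical.

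In this pathway a growth factor receptor activates Ras, and Ras acts through Raf and MEK to switch on the kinases ERK1 and ERK2 by phosphorylation. Active ERK raises the transcription of its own inhibitors. The dual-specificity phosphatases (DUSP) remove the activating phosphates from MAP kinases, and Sprouty and Spred proteins act further up, on the signal that reaches Ras and Raf. ERK signalling is constitutively active in MDA-MB-231, and transcripts such as DUSP4, DUSP6, SPRY2, SPRY4 and PHLDA1 are commonly used as readouts of ERK output. Feedback genes are also open to other inputs: DUSP1, for one, is induced by many stresses and by cyclic AMP.

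Gene positions are those of GENCODE 29 on GRCh38, the build that the submitters' processing notes name as hg38, and all the genes are annotated as protein-coding. DUSP1 (ENSG00000120129) spans chr5:172768090-172771195 on the minus strand. SPRY1 (ENSG00000164056) spans chr4:123396795-123403760 on the plus strand, and SPRY2 (ENSG00000136158) spans chr13:80335976-80340951 on the minus strand. DUSP5 (ENSG00000138166) lies at chr10:110497838-110511544 and DUSP6 (ENSG00000139318) at chr12:89347232-89353271. SPRY4 (ENSG00000187678) lies at chr5:142310427-142326455, SPRED1 (ENSG00000166068) at chr15:38252326-38357249, SPRED2 (ENSG00000198369) at chr2:65310851-65432637 and PHLDA1 (ENSG00000139289) at chr12:76025447-76033932. DUSP4 is the entry ENSG00000120875.

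Promoter sequences are shown for DUSP1, SPRY1 and SPRY2, because the first of these peaked at 6 h while SPRY1 and SPRY2 moved in opposite directions at 3 and 6 h. Each line gives the 250 bases before the outermost annotated start in RefSeq (GRCh38.p14), 5′ to 3′ on the strand of the gene. The windows are chr5:172771196-172771445 (minus) for DUSP1, chr4:123396545-123396794 (plus) for SPRY1 and chr13:80341127-80341376 (minus) for SPRY2. Capitals mark matches to the motifs searched.
DUSP1: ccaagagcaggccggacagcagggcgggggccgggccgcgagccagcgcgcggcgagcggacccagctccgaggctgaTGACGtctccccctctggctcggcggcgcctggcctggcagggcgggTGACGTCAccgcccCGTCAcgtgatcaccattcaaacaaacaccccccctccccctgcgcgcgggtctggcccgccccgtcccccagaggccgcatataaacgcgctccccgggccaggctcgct
SPRY1: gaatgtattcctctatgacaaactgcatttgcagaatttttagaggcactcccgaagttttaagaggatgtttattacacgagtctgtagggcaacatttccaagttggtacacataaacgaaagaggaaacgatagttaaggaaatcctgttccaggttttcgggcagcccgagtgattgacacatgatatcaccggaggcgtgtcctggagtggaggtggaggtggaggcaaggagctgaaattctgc
SPRY2: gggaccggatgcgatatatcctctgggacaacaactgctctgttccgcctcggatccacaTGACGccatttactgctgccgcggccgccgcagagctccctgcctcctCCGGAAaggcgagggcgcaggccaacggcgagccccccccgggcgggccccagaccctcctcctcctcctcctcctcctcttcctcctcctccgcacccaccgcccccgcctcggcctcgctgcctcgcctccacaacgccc
The RefSeq table held promoters for 8 of the 10 genes, and DUSP4 and DUSP5 were not matched. Motifs were searched on both strands. The DUSP1 window holds the full cyclic AMP response element TGACGTCA from base 125 to base 118 before the start, a match found in 1.65% of the 35116 promoters of the table and in 1 of the 12 windows of the 8 genes here, some of which have several annotated starts. Its 5-base core TGACG, which overlaps the full element, also occurs at bases 172 to 168 and 111 to 107 of DUSP1, and in the windows of SPRY2 and SPRY4. The core was found in 3 of the 12 windows and in 21.2% of all promoters. The ETS core CCGGAA, bound by a family of factors that ERK can phosphorylate, occurs in the SPRY2 window shown, at a second annotated start of SPRY1 and in PHLDA1 (3 of the 12 windows, against 14.5% of all promoters). The AP-1 motif TGANTCA, the kappaB motif and the CArG box of the serum response element were found in 0 of the 12 windows, and in 6.57%, 1.73% and 1.16% of all promoters. These are matches of letters only.

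Libraries held 13731520 to 19234924 expected counts. The labelled cell type was checked against its markers: VIM stood at 3360 ± 108 CPM (counts per 1000000 of the TMM-scaled library total, SD, n = 3) and CD44 at 1320 ± 43.6 CPM at 0 h, whereas ESR1 and PGR did not exceed 0.124 CPM there and CDH1 stood at 0.477 ± 0.0722 CPM. The mesenchymal marker ZEB1 stood at 42.6 ± 3.44 CPM, and of the luminal and epithelial markers ERBB2 stood at 64.5 ± 3.12 CPM and EPCAM at 17.8 ± 1.37 CPM. Replicates 2 and 3 at 6 h and at 24 h were much closer to each other than any other pair, with chi-square values per gene of 1.52 and 1.69 against 4.09 to 16.1, and the labels do not say whether these are repeat libraries of one culture. They were kept as separate libraries, and averaging each pair lowered the share of all genes called from 30.1% to 16.6% at 6 h against 0 h, from 35.1% to 22.7% at 24 h against 0 h, and from 12% to 2.96% at 24 h against 12 h. Of 5 luminal or epithelial markers, 3 were tested and 1 was called against 0 h, lower at 6 h (13.2% of all genes). Of 4 leukocyte or endothelial markers, 2 were tested and only PECAM1 was called in any comparison with 0 h, higher at 24 h (18% of all genes). Of 5 mesenchymal and basal B markers, all tested, 3 were higher at 6 h (16.9% of all genes). At 24 h 2 of them were higher and 1 lower (18% and 17.1% of all genes), and VIM stood at 2610 ± 169 CPM. The dependence of counts on transcript length varied between libraries, with slopes of log2 CPM from -0.14 per doubling of length at 3 h (replicate 2) to 0.13 at 24 h (replicate 2), and the mitochondrial share of counts ran from 3.66% at 24 h to 9.71% at 1 h. Every comparison of the 10 genes was therefore repeated with a correction for each library's trend with length and GC content. Results for the markers and for the other lists of genes are from the uncorrected fit only.

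All 10 genes passed the filter on low counts, with 52 (SPRY1) to 9858 (PHLDA1) counts per library. Each of them differed among the 6 times, as did 64.2% of all 15365 genes tested (edgeR quasi-likelihood F-test over all times, adjusted p below 0.05). DUSP1 was number 17, SPRY1 number 28 and DUSP4 number 60 of all genes by the p-value of that test (adjusted p 2.9e-11, 1.6e-10 and 3.3e-09), while SPRED2 was number 4376 (9.4e-04). The genes did not move as one block. DUSP5 rose by 1 h, SPRY1 fell to its lowest at 3 h while SPRY4 and SPRY2 rose, DUSP1 peaked at 6 h, and DUSP4 rose to 24 h.

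**Figure D1:**
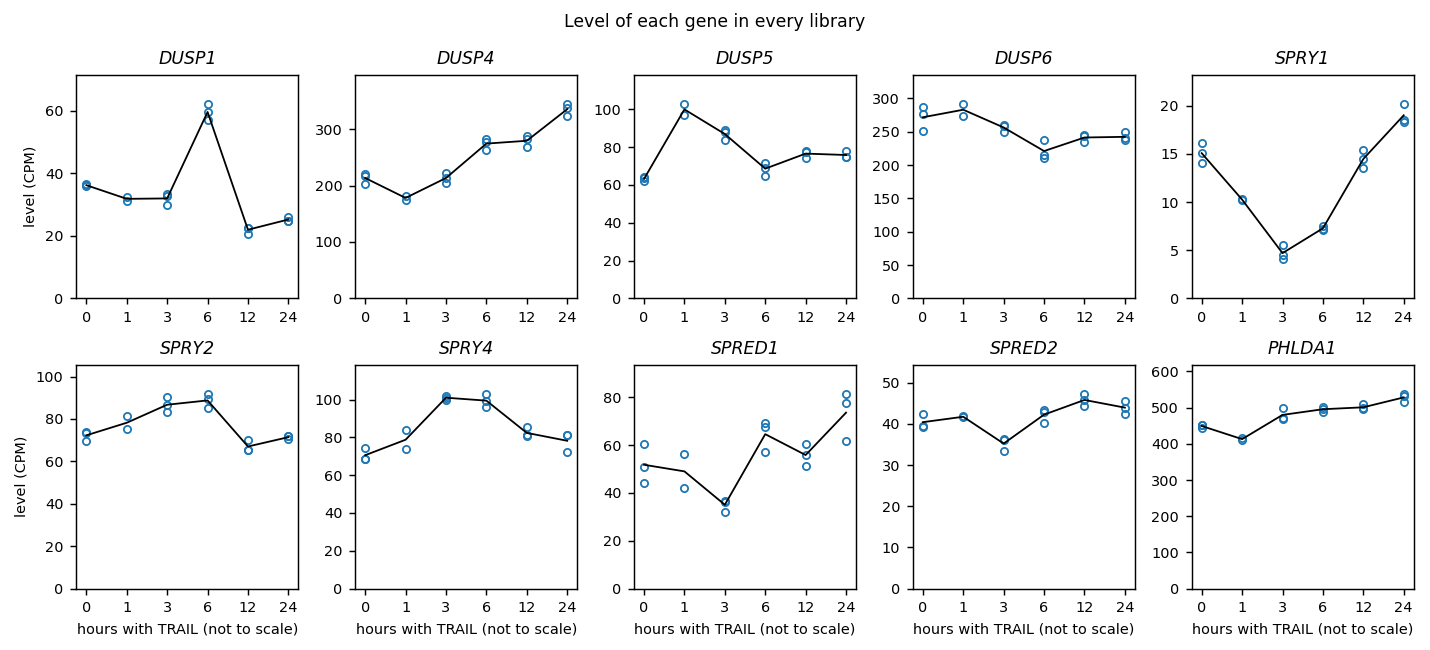
Level of each of the 10 genes in CPM (vertical axis, from 0) against hours with TRAIL (horizontal axis, equally spaced), with 1 open circle per library and a line through the group means. DUSP1 stands at 59.6 CPM at 6 h, above all its other times, and SPRY1 at 4.69 CPM at 3 h, below all its other times.

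Among the phosphatases, DUSP5, a nuclear enzyme selective for ERK, was the early riser. Its level was 63.5, 64.1 and 62.0 CPM in the 0 h libraries and 97.0 and 103 CPM at 1 h. At 3 h it was 83.9, 89.2 and 87.8 CPM, and at 6 h it was 71.8, 69.1 and 65.0 CPM. Both 1 h libraries thus stood above every other library, and the level then came down towards, but not below, that of 0 h. Relative to 0 h, DUSP5 was higher by 0.66 on the log2 scale after 1 h (SE 0.0607, adjusted p 2.4e-06) and by 0.46 after 3 h (SE 0.0555, adjusted p 1.1e-05). At 6 h the difference was not called (0.12, adjusted p 0.112, 95% interval 0.003 to 0.24), although the 3 libraries lay above all 0 h libraries. With the length and GC correction it was called, at 0.22 (adjusted p 0.00149). DUSP5 was higher again at 12 h, with 74.5 to 77.8 CPM (0.28, adjusted p 0.00293), and at 24 h, with 74.7 to 78.2 CPM (0.26, adjusted p 0.00141).

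DUSP1, which encodes a nuclear phosphatase that acts on p38 and JNK as well as ERK, showed a single peak. Its level was 36.0, 36.1 and 36.4 CPM at 0 h, 32.5 and 31.1 CPM at 1 h, and 33.4, 29.7 and 32.7 CPM at 3 h. In the 6 h libraries it was 62.2, 57.1 and 59.4 CPM. It then stood at 22.6, 22.5 and 20.7 CPM at 12 h and 24.8, 24.7 and 26.1 CPM at 24 h. All 6 h libraries were higher than any other library, and all 12 h and 24 h libraries were lower than any earlier one. Against 0 h, DUSP1 rose by 0.72 on the log2 scale at 6 h (SE 0.0643, adjusted p 2.7e-07), and fell by 0.72 at 12 h (SE 0.0683, adjusted p 1.5e-06) and by 0.52 at 24 h (SE 0.0679, adjusted p 2.2e-05). From 6 h to 12 h the fall was -1.44 (adjusted p 2.3e-11), the largest change of any of the 10 genes between consecutive times. The values at 1 h and 3 h were -0.18 and -0.18 and were not called (adjusted p 0.894 and 0.0728). At 3 h the difference was called with the length and GC correction (-0.22, adjusted p 0.0223). In bulk RNA such as this, fewer cells with a transcript and less of it per cell cannot be told apart.

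DUSP4, a nuclear phosphatase for ERK and JNK, rose late and went on rising. The 0 h libraries had 202, 221 and 217 CPM, and those at 1 h had 182 and 174 CPM. At 3 h the level was 214, 204 and 222 CPM. It was 263, 282 and 278 CPM at 6 h, 269, 282 and 287 CPM at 12 h, and 323, 345 and 338 CPM at 24 h. The 24 h libraries exceeded all others, and those at 6 and 12 h overlapped each other but not those at 0 h. DUSP4 was thus higher than at 0 h by 0.36 on the log2 scale at 6 h (adjusted p 1.0e-04), by 0.39 at 12 h (1.4e-04) and by 0.65 at 24 h (SE 0.0546, adjusted p 1.3e-07). The lower level at 1 h (-0.26) was not called (adjusted p 0.101), but was called after the length and GC correction (-0.25, adjusted p 0.00978) and by DESeq2. Over the 17 libraries the level of DUSP4 correlated with the length slope (r = 0.84) and with the mitochondrial share (r = -0.89). With the correction, DUSP4 was still higher at 6 h (0.29), 12 h (0.37) and 24 h (0.55, adjusted p 3.5e-09).

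DUSP6, the cytoplasmic phosphatase selective for ERK and often taken as the most direct readout of ERK activity, changed least among the phosphatases. Its 0 h libraries had 287, 251 and 277 CPM, and those at 1 h had 274 and 292 CPM. At 6 h it stood at 237, 215 and 211 CPM, below all 0 h libraries. The log2 fold change was -0.30 at 6 h (SE 0.0584, adjusted p 9.96e-04). At 12 h it was -0.17 and not called (adjusted p 0.0603), but was called by DESeq2 (adjusted p 0.0249), with the length and GC correction (-0.21, adjusted p 0.0134) and on leaving out replicate 2 of 0 h. DUSP6 was called lower at 24 h (-0.17, adjusted p 0.0326). The 24 h call ended when the 0 h replicate 1 or 3 or the 24 h replicate 1 or 2 was left out. It also ended with libraries scaled by their totals alone (-0.09, adjusted p 0.202) and without the filter on low counts (adjusted p 0.0812). The same held in a fit restricted to 0 and 24 h (adjusted p 0.0525) and on averaging the close replicates (adjusted p 0.0681). With the length and GC correction the call was kept (-0.24, adjusted p 0.00251). DUSP6 counts were not whole numbers in 16 of 17 libraries, so some fragments were divided between it and other entries and its values are less certain.

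Of the Sprouty genes, whose products restrain signalling from growth factor receptors to Ras and Raf, SPRY1 moved against the other two. SPRY1 was the least abundant of the 10 genes, with 16.1, 15.1 and 14 CPM at 0 h and 10.2 and 10.3 CPM at 1 h. The 3 h libraries had 4.52, 4.04 and 5.52 CPM and the 6 h libraries 7.08, 7.50 and 7.23 CPM. At 12 h it was back at 15.4, 14.5 and 13.5 CPM, and at 24 h it stood at 18.3, 20.2 and 18.5 CPM. The groups at 1, 3 and 6 h each lay wholly below 0 h, the 12 h group overlapped 0 h, and the 24 h group lay above it. SPRY1 fell by 1.67 on the log2 scale at 3 h (SE 0.111, adjusted p 2.7e-09), which is 0.313 of its 0 h level and the 53rd lowest value among the 15365 genes. At 6 h it was lower by -1.05 (SE 0.1, adjusted p 6.3e-07), and at 24 h higher by 0.34 (SE 0.0902, adjusted p 0.00706). Its value at 12 h was -0.06 (95% interval -0.25 to 0.13, adjusted p 0.727). At 1 h the fall was -0.55 (adjusted p 0.0258). That call was lost when either 1 h library or the 0 h replicate 1 or 2 was left out (adjusted p from 0.106 to 0.345), with the value between -0.50 and -0.60 throughout.

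SPRY2 and SPRY4 rose when SPRY1 was low. SPRY4 had 74.6, 68.8 and 68.3 CPM at 0 h, 73.6 and 83.9 CPM at 1 h, and 102, 101 and 100 CPM at 3 h. It had 96.3, 103 and 99 CPM at 6 h, then 85.4, 80.5 and 81.2 CPM at 12 h and 72.1, 81.2 and 81.3 CPM at 24 h. All SPRY4 libraries at 3 and 6 h stood above those of every other time. The SPRY4 log2 fold change was 0.52 at 3 h (SE 0.0637, adjusted p 1.3e-05), 0.50 at 6 h (SE 0.0633, adjusted p 2.0e-05) and 0.22 at 12 h (adjusted p 0.0268). The call at 12 h ended when any 1 of 5 libraries was left out, that is, each 12 h library and the 0 h replicates 2 and 3. SPRY4 was not called at 24 h (0.15, adjusted p 0.0777). SPRY2 had 69.4 to 73.8 CPM at 0 h, 83.2 to 90.4 CPM at 3 h and 85.1 to 91.8 CPM at 6 h, with no overlap with 0 h at either time. It was higher by 0.26 at 3 h (adjusted p 0.00376) and 0.30 at 6 h (adjusted p 8.5e-04), and fell by 0.40 from 6 h to 12 h (adjusted p 6.3e-05). At 24 h SPRY2 stood at 70.3 to 72.1 CPM, within the range of 0 h, with a difference of -0.02 (95% interval -0.14 to 0.10).

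The Spred genes, whose products bring the Ras inhibitor neurofibromin to the membrane, were lowest at 3 h. SPRED1 had 44.2, 50.7 and 60.4 CPM at 0 h and 36.3, 32.1 and 36.7 CPM at 3 h. At 6 h it had 56.9, 67.5 and 69.3 CPM, at 12 h 51.4, 60.4 and 55.7 CPM, and at 24 h 61.9, 77.4 and 81.4 CPM. The 3 h group lay below all other libraries and the 24 h group above all 0 h libraries, and the 0 h replicates of SPRED1 spread more widely, relative to their mean, than those of the other genes. The difference from 0 h was -0.56 at 3 h (SE 0.136, adjusted p 0.01), 0.32 at 6 h (not called, adjusted p 0.0716) and 0.51 at 24 h (SE 0.129, adjusted p 0.00657). At 6 h SPRED1 was called under 4 of 10 alternatives (adjusted p 8.2e-04 without the filter on low counts, 0.0481 by DESeq2, 0.0489 in the restricted fit and 0.0441 with the replicate block), and on leaving out either replicate 3 of 0 h or replicate 1 of 6 h. The 3 h call ended on leaving out replicate 3 of 0 h (-0.43, adjusted p 0.0562) and, separately, replicate 2 of 3 h (-0.50, adjusted p 0.0539). SPRED1 has one of the longest transcripts of the group (7780 bases, 38.9% GC), and its level followed the length slope of the libraries closely (r = 0.94 over 17 libraries), as |r| above 0.8 did for 23.1% of all genes tested. With the length and GC correction it was -0.48 at 3 h (adjusted p 3.0e-04), 0.15 at 6 h (0.159) and 0.29 at 24 h (0.00594), so the value at 24 h was reduced by more than 1.5 times and that at 3 h was not.

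SPRED2 varied little. It had 39.2 to 42.5 CPM at 0 h, 33.4 to 36.3 CPM at 3 h and 44.4 to 47.3 CPM at 12 h. The log2 fold change was -0.20 at 3 h (adjusted p 0.0395) and 0.18 at 12 h (not called, adjusted p 0.0633). At 12 h SPRED2 was called higher with libraries scaled by their totals alone (0.215, adjusted p 0.0394). The length and GC correction also gave a call at 12 h, without the replicate block (0.16, adjusted p 0.0378) and with it (0.16, adjusted p 0.0459). The 3 h call was lost when any library of the comparison other than the 3 h replicate 3 was left out, without the filter on low counts, and in a fit restricted to the libraries of 0 and 3 h. From 3 h to 6 h SPRED2 rose by 0.26 (adjusted p 0.00292) and SPRED1 by 0.88 (adjusted p 1.5e-04).

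PHLDA1, a small protein with a pleckstrin homology-like domain whose transcript follows ERK activity, was the most abundant of these transcripts by CPM. It had 453, 444 and 451 CPM at 0 h, 411 and 415 CPM at 1 h, and 470 to 498 CPM at 3 h. At 6 h it had 488 to 503 CPM, at 12 h 495 to 509 CPM and at 24 h 516 to 538 CPM. The 1 h libraries were the lowest and those at 24 h the highest, with no overlap with 0 h at either time. Its log2 fold change was 0.14 at 6 h (adjusted p 0.0277), 0.16 at 12 h (adjusted p 0.0334) and 0.24 at 24 h (SE 0.0469, adjusted p 9.8e-04). None of these calls held after the length and GC correction, which gave -0.005 at 6 h, 0.055 at 12 h and 0.03 at 24 h (adjusted p 0.96, 0.579 and 0.726). From 3 h to 6 h the uncorrected value of 0.05 was not called, whereas the corrected one was lower at 6 h (-0.15, adjusted p 0.0459). The calls at 6 h and 12 h also ended with any 1 library of the comparison left out. PHLDA1 has the longest transcript of the group (8069 bases), its counts were not whole in all 17 libraries, and the antisense gene AC011611.3 at the same locus had 283 to 588 counts.

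**Figure D2:**
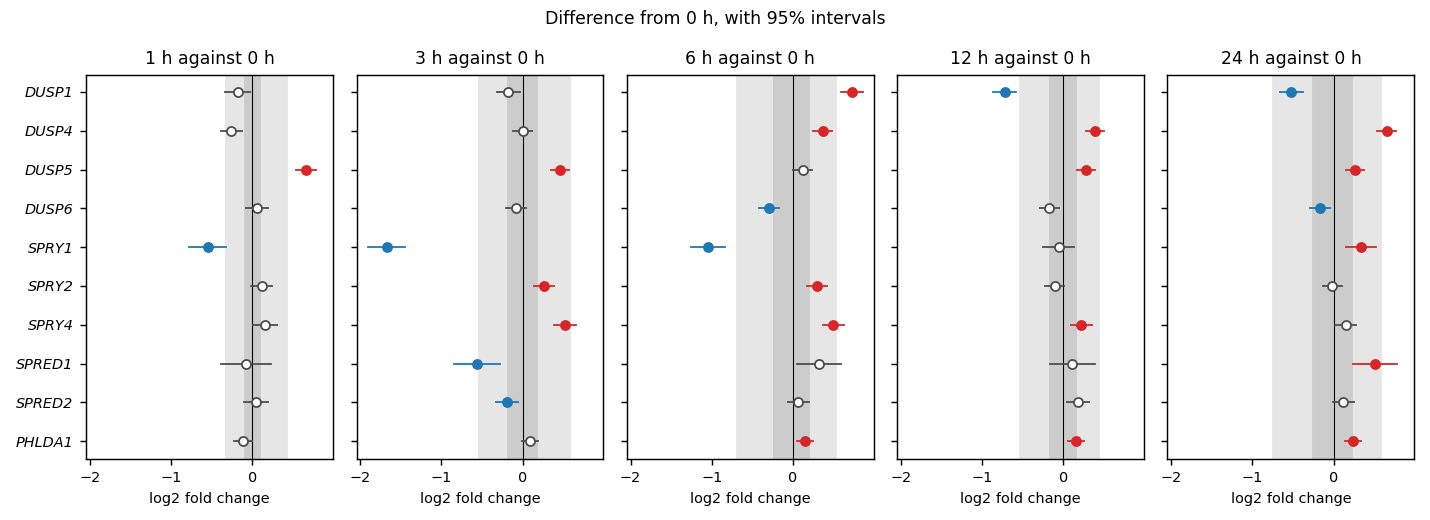
Log2 fold change against 0 h (horizontal axis) of the 10 genes (rows) at 5 times (panels), with 95% intervals as lines. Red and blue points are genes called higher and lower, open points were not called, and the dark and light bands hold the middle 50% and 90% of all genes tested; SPRY1 at 3 h (-1.67) lies farthest outside them.

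Counted over the group, 2 of 10 genes were called at 1 h (DUSP5 higher, SPRY1 lower), against 0.312% of all genes tested, 0.26% higher and 0.0521% lower. DUSP5 alone was called in a fit restricted to the libraries of 0 and 1 h, and when either 1 h library or the 0 h replicate 1 or 2 was left out. At 3 h, 3 were higher (DUSP5, SPRY2, SPRY4) and 3 lower (SPRY1, SPRED1, SPRED2), where 17.7% of all genes were called, 9.04% higher and 8.71% lower. At 6 h, 5 were higher (DUSP1, DUSP4, SPRY2, SPRY4, PHLDA1) and 2 lower (DUSP6, SPRY1), against 30.1% of all genes, 16.9% higher and 13.2% lower. At 12 h, 4 were higher (DUSP4, DUSP5, SPRY4, PHLDA1) and DUSP1 was lower, against 12.4% of all genes, 5.96% higher and 6.48% lower. Only 3 of these 5 calls were left without the 0 h replicate 2 or 3, or without any single 12 h library. SPRY4 and PHLDA1 were lost each time, and PHLDA1 also without the 0 h replicate 1. At 24 h, 5 were higher (DUSP4, DUSP5, SPRY1, SPRED1, PHLDA1) and 2 lower (DUSP1, DUSP6), against 35.1% of all genes, 18% higher and 17.1% lower. At 1 h, 6 of the 10 genes had no overlap between their libraries and those of 0 h, as did 19.1% of all genes. The same held for 8 genes at 3 h (33.9%) and 8 at 6 h (44.1%), and later for 7 genes both at 12 h (32.6%) and at 24 h (45.8%). The median log2 fold change of the group was -0.02, -0.04, 0.22, 0.14 and 0.19 at these times, and that of all genes tested lay between -0.02 and 0.00. The shares of all genes also moved with single libraries of the times compared. With 1 left out, the share called ranged from 0.17% to 0.274% at 1 h, from 9.22% (without the 0 h replicate 3) to 18.9% at 3 h, and from 17.4% (without the 6 h replicate 3) to 32% at 6 h. It ranged from 4.73% (without the 12 h replicate 2) to 10.2% at 12 h, and from 22.5% (without the 0 h replicate 1) to 37.8% at 24 h. These 5 comparisons share the 0 h libraries, so their counts are not independent of each other. The size of the changes was near that of other genes at 24 h, with a median absolute value of 0.25 against 0.24, and larger at 6 h, with 0.31 against 0.22.

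Changes were also measured between consecutive times. From 1 h to 3 h, 5 genes were called, against 5.73% of all genes (3.17% higher, 2.56% lower): DUSP4, SPRY4 and PHLDA1 rose and SPRY1 and SPRED2 fell. Only 2, SPRY1 and SPRY4, were called when just these libraries were fitted, only SPRY1 without the 1 h replicate 1, and 3 (SPRY1, SPRY4 and SPRED1) without the 1 h replicate 2. The SPRED2 call (adjusted p 0.048) was lost under 7 of 10 alternatives, RLE scaling, DESeq2, limma-voom and the replicate block among them, and with each of the 5 libraries left out. From 3 h to 6 h, 7 were called, against 43.2% of all genes (22.9% higher, 20.3% lower): DUSP1, DUSP4, SPRY1, SPRED1 and SPRED2 rose and DUSP5 and DUSP6 fell. DUSP1 rose by 0.90 in this step (SE 0.0658, adjusted p 3.9e-08). From 6 h to 12 h, 5 were called, against 20.6% (8.7% higher, 11.9% lower): SPRY1 (0.99, adjusted p 1.7e-06) and DUSP5 (0.16, adjusted p 0.0457) rose, and DUSP1, SPRY2 and SPRY4 fell. From 12 h to 24 h, 2 were called, DUSP4 (0.26, adjusted p 0.0051) and SPRY1 (0.40, adjusted p 0.00854), against 12% of all genes (6.42% higher, 5.6% lower). With 1 library left out, the share of all genes called ranged from 1.71% to 6.28% for 1 to 3 h, from 32.8% to 44% for 3 to 6 h, from 11.8% to 21% for 6 to 12 h, and from 3.8% (without the 12 h replicate 1) to 18.2% for 12 to 24 h. The SPRY1 call from 12 h to 24 h ended without the 24 h replicate 2 (0.35, adjusted p 0.0572) and when the close replicates at 6 h and 24 h were averaged. The DUSP5 call from 6 h to 12 h was lost with 5 of the 6 libraries of that comparison left out in turn, with the replicate number as a block and with the length and GC correction.

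**Figure D3:**
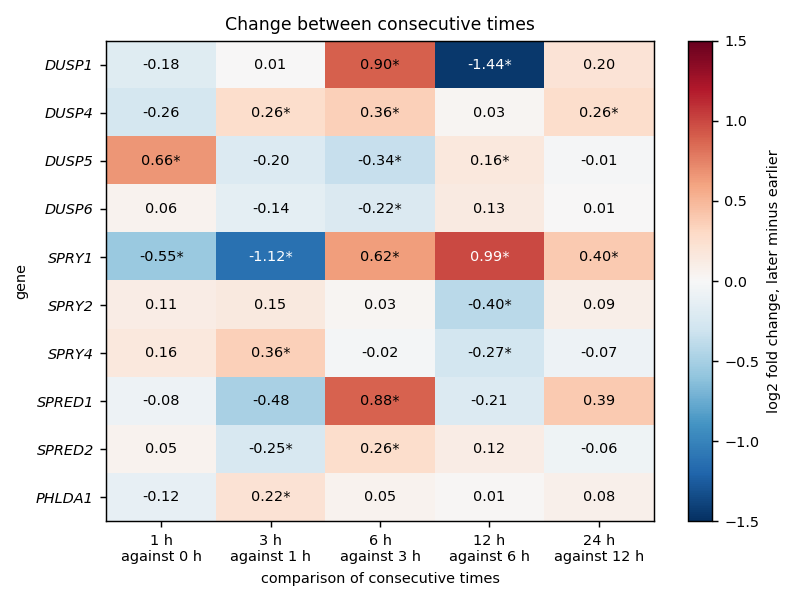
Log2 fold change of each of the 10 genes (rows) between consecutive times (columns), written in each cell and coloured from blue (lower at the later time) to red (higher), with an asterisk where the change was called. DUSP1 from 6 h to 12 h (-1.44) and SPRY1 from 1 h to 3 h (-1.12) are the deepest falls.

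To compare levels between genes, CPM was divided by the length of the longest annotated transcript in kilobases. At 0 h the order of levels per kilobase was DUSP6 (61.8 ± 4.25 CPM per kb, SD, n = 3), PHLDA1 (55.7 ± 0.588), DUSP4 (38.6 ± 1.81), SPRY2 (26.7 ± 0.907), DUSP5 (24.7 ± 0.411) and DUSP1 (17.9 ± 0.115). Below these came SPRY4 (13.2 ± 0.655), SPRED2 (9.87 ± 0.441), SPRED1 (6.65 ± 1.05) and SPRY1 (5.77 ± 0.393). Of the neighbours in this order, SPRED1 and SPRY1 overlapped between libraries, and the others did not. At 24 h the order at the top was PHLDA1 (65.5 ± 1.36), DUSP4 (60.5 ± 2.07) and DUSP6 (55.1 ± 1.40), without overlap between libraries, so that DUSP4 and PHLDA1 stood above DUSP6. PHLDA1 already stood above DUSP6 at 6 h (61.4 ± 0.919 against 50.2 ± 3.11) and 12 h (62.1 ± 0.948 against 54.9 ± 1.27). DUSP1 stood below SPRY4 at 24 h, with 12.5 ± 0.384 against 14.6 ± 0.985 CPM per kb. It had also been below SPRY4 at 3 h (15.8 against 18.9) and 12 h (10.9 against 15.4), but above it at 6 h (29.5 against 18.6). The order depends on the annotated lengths, which need not be those of the transcripts present. These levels were also not corrected for the length trend of the libraries. With that correction the log2 difference from 0 h to 24 h went from 0.24 to 0.03 for PHLDA1 and from 0.65 to 0.55 for DUSP4.

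Over the 17 libraries, which share the time course and the length trend, the log2 CPM of DUSP4 and PHLDA1 had the highest correlation within the group (r = 0.90). SPRY1 correlated negatively with SPRY2 (r = -0.83) and SPRY4 (r = -0.81), while SPRY2 and SPRY4 correlated positively (r = 0.71), as did DUSP1 and SPRY2 (r = 0.75). DUSP4 and DUSP6 had r = -0.73, and their own correlations with the length slope of the libraries were 0.84 and -0.69. SPRED1 and SPRED2 had r = 0.76.

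Likeness of pattern was measured against 11359 genes whose log2 CPM averaged 2 or more. The genes named were picked by correlation over these same libraries, so a change they share is no separate evidence. Levels were not corrected for length or GC, and |r| with the length slope exceeded 0.8 for 23.1% of all genes tested. The patterns most like that of DUSP1 were those of ALDH1A3 (r = 0.963), CDCA5 (0.956) and CNN3 (0.922), all over 17 libraries. ALDH1A3, a retinaldehyde dehydrogenase, shared the peak at 6 h at a smaller size (0.27, adjusted p 0.00582). Nearest to SPRY1 were TRERF1 (r = 0.962), ARL6IP5 (0.946) and ZMYND8 (0.945), and TRERF1, a transcriptional regulator, was also lower at 3 h (-0.996, adjusted p 6.0e-08). Near to SPRY2 were MALT1 (0.966), a protease of NF-κB signalling, and PAWR (0.953). SPRY4 was followed by CDC42SE1 (0.938), TPRA1 (0.928) and ZNF697 (0.92). DUSP4 was nearest to ZNF436 (0.972), ZNF518B (0.968) and SYNRG (0.965), and PHLDA1 to GPBP1 (0.914), ZFP36L2 (0.903) and KPNA6 (0.889). SPRED1 was nearest to ZDHHC20 (0.981), CANX (0.981) and WWTR1 (0.974). SPRED2 was nearest to ARHGAP12 (0.924), ZNF292 (0.922) and ERRFI1 (0.916), a feedback inhibitor of the EGF receptor. The early pattern of DUSP5 had the lowest values, with NSUN3 (0.853), AC008969.1 (0.841) and ZNF674-AS1 (0.812), and DUSP6 was nearest to C8orf58 (0.917), SIGIRR (0.907) and TMEM200B (0.897).

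The rest of the pathway was followed through fixed lists. These were read from the uncorrected fit of all 17 libraries only, so their dependence on the length trend or on single libraries was not tested. Of the 18 genes of the cascade from adaptors and Ras to ERK and its kinase targets, 0 were called by edgeR at 1 h (0.312% of all genes) and 3 were lower at 3 h (MAP2K1, KSR1 and RPS6KA1, against 8.71% of all genes). At 6 h, 11 were higher and 1 lower, where 16.9% of all genes were higher and 13.2% lower. At 12 h 5 were higher and 1 lower (5.96% and 6.48% of all genes), and at 24 h 11 were higher and 1 lower (18% and 17.1%). The scaffold gene KSR1 had the largest values, -0.61 at 3 h (adjusted p 0.00345) and 0.92 at 24 h (adjusted p 1.0e-05), with a level of 5.85 ± 0.228 CPM at 0 h and 11.1 ± 1.32 CPM at 24 h (SD, n = 3). The kinase gene BRAF was higher by 0.57 at 6 h (adjusted p 1.5e-04). The median of this list was 0.25 at 6 h and 0.29 at 24 h.

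Of 6 further MAP kinase phosphatases, 5 were tested and DUSP9 was too low. DUSP8, which acts on JNK and p38, was higher by 1.21 at 3 h (adjusted p 0.00628), at a low level of 3.14 ± 0.814 CPM against 1.35 ± 0.129 at 0 h. The immune cell phosphatase gene DUSP2 was lower by -1.75 at 24 h (adjusted p 2.7e-05), from 2.39 ± 0.28 to 0.707 ± 0.145 CPM. At 6 h 4 of the 5 were higher (DUSP7, DUSP8, DUSP10 and DUSP16), against 16.9% of all genes. Among 9 other brakes, of which 8 were tested, 1 was higher and 1 lower at 3 h (9.04% and 8.71% of all genes). At 6 h 4 of these brakes were higher and 1 lower (16.9% and 13.2%), and at 12 h 5 were higher and 0 lower (5.96% and 6.48%). The 24 h libraries had 5 higher and 1 lower (18% and 17.1%). The ubiquitin ligase gene CBL was higher by 0.81 at 6 h (adjusted p 1.4e-04) and SPRED3 by 0.72 (adjusted p 0.00344).

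The 9 other transcripts known to respond to ERK did not share one course. FOSL1, an AP-1 subunit gene, stood at 585 ± 47.5 CPM at 0 h and 1150 ± 71.8 CPM at 3 h (0.97, adjusted p 8.2e-08) and was lower at 24 h (-0.47, adjusted p 3.0e-04). The immediate-early gene IER3 was called higher at each of the 5 times, most at 3 h (0.94, adjusted p 4.9e-08). FOS, another AP-1 subunit gene, stood at 44.0 ± 7.55 CPM at 0 h and 12.2 ± 1.16 CPM at 3 h, then at 43.1 ± 7.44 CPM at 6 h before 14.8 ± 1.10 CPM at 12 h (SD, n = 3). It was lower than at 0 h by 1 h (-0.95, adjusted p 0.0027) and at 3 h (-1.85, adjusted p 6.0e-08), and was not called at 6 h (-0.03, adjusted p 0.88). It was lower again at 12 h (-1.57, adjusted p 9.0e-07) and 24 h (-1.05, adjusted p 2.1e-05). Over the list, 3 were higher and 2 lower at 3 h, where 9.04% of all genes were higher and 8.71% lower. At 6 h 4 were higher and 0 lower (16.9% and 13.2% of all genes), while the 24 h libraries had 1 higher and 3 lower (18% and 17.1%).

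**Figure D4:**
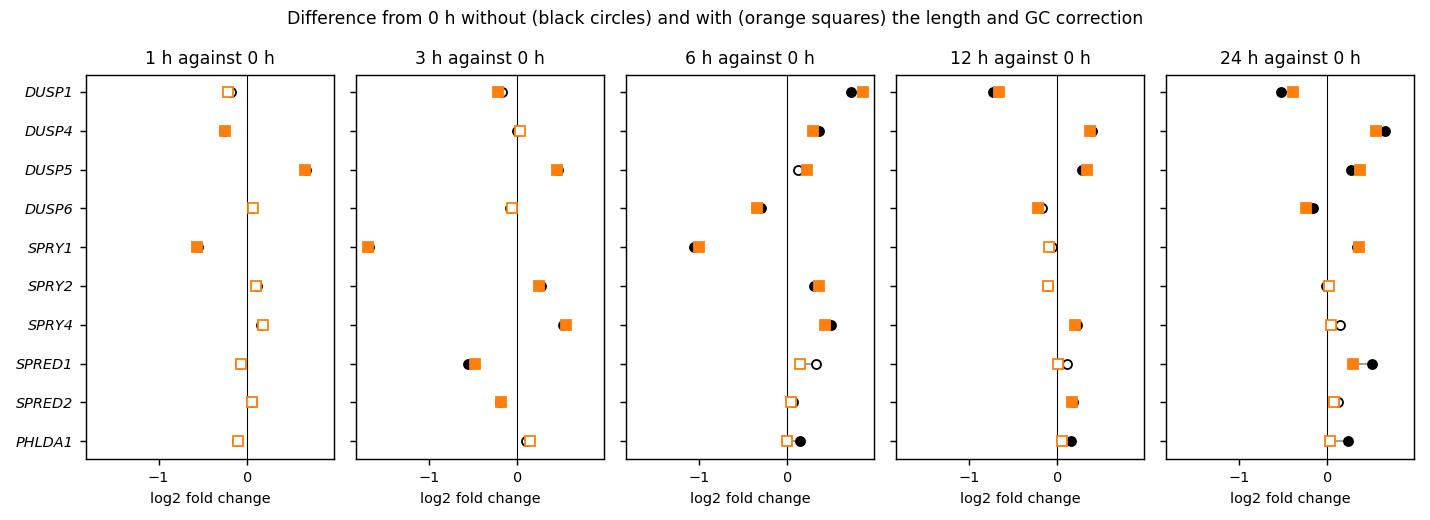
Log2 fold change against 0 h (horizontal axis) of the 10 genes (rows) at 5 times (panels), without the correction (black circles) and with each library's trend with transcript length and GC content removed (orange squares), filled where the difference was called. PHLDA1 and SPRED1 at 24 h shift most towards 0 (0.24 to 0.03 and 0.51 to 0.29), while SPRY1 at 3 h stays at -1.67 and -1.69.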

How the data were processed

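The values the authors deposited are expected counts (estimated fragments per gene, not scaled to depth or length) in a single table, from RSEM per the file name. Cutadapt 1.18, STAR 2.7.0f and hg38 are listed in the submitters' processing notes. The RSEM version, annotation and strand setting are not given in the sources used here, so reads of overlapping antisense genes may not be separated. Per the labels' protocols, a stranded kit with poly(A) selection was used. Of the values in the table, 10.8% were not whole.

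Counts were rounded. Genes were filtered with filterByExpr, scaled by TMM and fitted with edgeR 4.0.16 (R 4.3.3, quasi-likelihood, robust) with a mean per time over all 17 libraries. The p-values were adjusted by the Benjamini-Hochberg method over 15365 genes, and a gene is called at an adjusted p below 0.05. All adjusted p-values are from this fit unless another tool or setting is named. Standard errors and intervals come from the unshrunken coefficient and its F statistic. Correlations use log2 CPM with a prior count of 2. Of 58870 entries, 58597 matched GENCODE 29 by unversioned identifier. The length and GC correction removed from each library, as offsets, spline trends of log2 CPM on length and GC of the longest transcript.

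The genes and lists were chosen with earlier results of these data known. The 10 genes are all named. For each, the 3 genes with the most similar pattern are named (some items are not reported here), and from each other list at most the 3 called genes with the largest change per comparison in detail. Names given only to show which genes a small count covers were chosen after their values were seen. Alternatives were RLE scaling, library size only, no filter, DESeq2 1.42.0, limma-voom (limma 3.58.1), fits restricted to the groups compared, a block for the replicate number, the length and GC correction with and without that block, averaging of the close replicates, and each library left out in turn.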

Additional observations from a re-analysis of the deposited data

How the results depend on the processing

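Of the 90 differences measured (10 genes in 9 comparisons), 46 were called. Of these, 32 kept their direction and call under every alternative and with each library of the times compared left out in turn. Fits without a library of another time were read only for the test over all times. Among the called differences only that of PHLDA1 at 6 h changed sign, and 11 of the 44 not called did so under some setting. With the length and GC correction PHLDA1 was -0.005 from 0 h to 6 h and -0.149 from 3 h to 6 h, and with the replicate block added -0.006 and -0.151. Fits restricted to the groups compared called 1 gene at 1 h against 0 h (0.299% of all genes tested) and 2 genes at 3 h against 1 h (2.15%). From 12 h to 24 h, 4 genes were called with the length and GC correction, 4 with the replicate block added, and 1 after averaging the close replicates. The shares of all genes called under these settings were 16.7%, 18.2% and 2.96%. With 1 library left out, the number of genes called ranged from 1 to 2 at 1 h, 4 to 6 at 3 h, 6 to 7 at 6 h, 3 to 4 at 12 h and 6 to 7 at 24 h against 0 h. For consecutive times it ranged from 1 to 4 (1 to 3 h), 7 to 7 (3 to 6 h), 4 to 6 (6 to 12 h) and 1 to 3 (12 to 24 h), and it was 10 over all times throughout. A lone 1 h library was assumed to vary like the other groups.

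Libraries of the same replicate number at different times had a median correlation of their deviations from the group mean of 0.04 (from -0.77 to 0.78). For libraries of other numbers it was -0.02 (from -0.74 to 0.77). Both ranges are wide, so these values cannot decide whether the numbers pair some of the samples. With the replicate number as a block, 2, 6, 8, 5 and 7 genes were called at 1, 3, 6, 12 and 24 h against 0 h. The shares of all genes called were 0.286%, 18.9%, 30.5%, 12.7% and 35.5%. The block gave 5, 7, 4 and 3 genes between consecutive times from 1 h on (6.82%, 43.2%, 21.2% and 13.2% of all genes), and 10 over all times (63.2%). The causes of these differences between settings were not tested. Depth limits SPRY1 most, which had as few as 52 counts in a library.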
